A study of Mus musculus with 2 samples.

Results

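Cytosolic ribosomal protein genes were compared between MHC-II high and MHC-II low medullary thymic epithelial cells (mTEC), the cells that display tissue antigens to developing T cells. The members were chosen by symbol: Rpl or Rps, digits and at most one of the letters a, x, y or l, with Rplp0, Rplp1, Rplp2 and Rpsa, and without genes that RefSeq lists as pseudogenes. This gave 81 of the 23411 genes in both deposited tables, 50 of the large subunit and its stalk and 31 of the small subunit. RefSeq lists all 81 as protein coding, and the transcribed pseudogene Rps4l fell out. Both groups are B6 thymus mTEC sorted by MHC class II from a pool of 3 mice, and the labels name no treatment or engineered allele. Each group is 1 library, made from polyA RNA with a kit that does not keep strand. The differences below are therefore between these 2 libraries. Intervals are exact 95% Clopper-Pearson limits of the reads and cover counting error of the reads only. With 1 library per group they hold no variation between samples. The reads carry no molecular identifiers, so PCR copies cannot be told from separate molecules and the limits may be too narrow.

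The cytosolic ribosome joins a small subunit, which reads the mRNA, and a large subunit, which forms the peptide bond. Each subunit holds ribosomal RNA and a fixed set of proteins, almost all present in a single copy, and the stalk proteins of the large subunit recruit elongation factors. The genes are known for strong, coordinated expression, for mRNAs that begin with a tract of pyrimidines (TOP mRNAs, whose translation the TOR kinase controls) and for many processed pseudogenes.

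Start sites are shown for 8 members with a RefSeq promoter entry whose ratios between the libraries were among the lowest (4 genes) or the highest (4 genes). Each stretch runs from 40 bases before the RefSeq start (build GRCm38.p6) to 20 bases from it, on the transcribed strand, and capitals mark its longest run of C and T within 20 bases of the start.
Rpl38 (chr11:114668540-114668599, plus strand): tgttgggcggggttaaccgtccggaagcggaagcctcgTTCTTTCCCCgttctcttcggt
Rpl37a (chr1:72711220-72711279, plus strand): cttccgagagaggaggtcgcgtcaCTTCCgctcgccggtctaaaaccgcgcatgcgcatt
Rps27 (chr3:90213629-90213688, minus strand): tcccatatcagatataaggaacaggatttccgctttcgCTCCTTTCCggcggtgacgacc
Rps15 (chr10:80292391-80292450, plus strand): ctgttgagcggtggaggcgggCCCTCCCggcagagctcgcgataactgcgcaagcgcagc
Rps24 (chr14:24490638-24490697, plus strand): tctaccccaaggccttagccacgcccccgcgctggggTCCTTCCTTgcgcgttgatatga
Rpl4 (chr9:64173347-64173406, plus strand): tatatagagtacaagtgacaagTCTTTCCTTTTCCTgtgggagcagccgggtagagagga
Rps27l (chr9:66946046-66946105, plus strand): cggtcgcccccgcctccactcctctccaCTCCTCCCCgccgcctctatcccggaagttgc
Rps15a (chr7:118116128-118116187, minus strand): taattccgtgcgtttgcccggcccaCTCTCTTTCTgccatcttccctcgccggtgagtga

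The first 4 of these genes were among the lowest in the MHC-II high library relative to the MHC-II low one and the last 4 among the least low. In the first set the run was 10 bases for Rpl38 and 9 for Rps27 but 7 for Rps15 and 5 for Rpl37a, and in the second it was 9 to 14 bases. Relative to the start, the run began at −2 for Rpl38 and Rps27 and at −3 for Rps24, and it crossed the start. For Rpl37a, Rps15, Rpl4, Rps27l and Rps15a it began at −19 to −12 and ended before the start. These genes were picked by their ratios, and run length was not compared with the ratio over all members. Over all promoters the median of the longest run was 5 bases. Of 61 members with a promoter entry, 28 (45.9%) had a run of at least 8 such bases there, against 15.9% of 27025 promoters. CTTTC lay within 20 bases of the start on the transcribed strand in 29.5% of member promoters and 5.38% of all, and since it is itself made of C and T both searches overlap. CGGAAG, the core that ETS-type factors such as GABP recognise, was on either strand of the 300-base promoter in 67.2% of member promoters, against 17.2% of all. These matches describe letters and not bound sites. A run or a CTTTC match may lie wholly before the start, so the shares do not count tracts that begin an mRNA.

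The members made up 1624212 reads in the MHC-II high library and 909947 in the MHC-II low one. Relative to the reads on all genes this was 1.17% in the MHC-II high library (1.17 to 1.18%) and 1.62% in the MHC-II low one (1.62 to 1.63%). Relative to the larger read totals behind the deposited RPKM values it was 0.759% (0.758 to 0.761%) in the MHC-II high library against 0.639% (0.638 to 0.641%) in the MHC-II low one, so the order of the libraries turned with the denominator. The gene read totals themselves were 138368543 in the MHC-II high and 56077471 in the MHC-II low library.

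With TMM-scaled totals, which set aside genes with extreme ratios, the summed level of the members was 10627 CPM (reads scaled to a common library size) in the MHC-II high library and 17923 CPM in the MHC-II low one. The sum was 1.69-fold lower in MHC-II high cells (1.68 to 1.69), with a log2 ratio of −0.75 that turned to 0.25 with the RPKM totals. A mean of at least 1 CPM over the libraries was required for testing, and 78 members passed it. None passed through 1 library alone, the lowest levels being 17.9 CPM in the MHC-II high and 39.0 CPM in the MHC-II low library. Under this scaling all 78 lay below equality in the MHC-II high library with their whole interval, where 50.7% of the 17438 tested genes had a negative log2 ratio. Under the RPKM totals 20 of the 78 were negative and 58 positive. The median log2 ratio was −0.80 over the members and −0.01 over all tested genes.

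Of the 78 members, 16 (20.5%) were lower beyond 2-fold in the MHC-II high library, with the whole interval past that fold, against a background of 10.9% of tested genes. None was higher, against a background of 14.5%. At 1.5-fold, 56 of 78 (71.8%) were lower against a background of 20.4%, and none higher against 22.8%. With unscaled gene totals 0 of 78 were lower (background 7.35%) and 0 higher (background 19.8%), and with RPKM totals 0 were lower (background 2.94%) and 0 higher (background 45.2%). The count of lower members was 15 with DESeq2 size factors (background 10.8%), 12 with upper-quartile scaling (10.4%), 7 with TMM over all genes (9.25%), 7 with unscaled totals without the top genes (9.64%) and 4 without NR_046233 and Lars2 (8.75%). In bulk RNA, fewer cells of a type and less RNA per cell cannot be told apart.

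A scaling adds one constant to every log2 ratio, so the distance of the members from other genes is fixed by construction apart from the genes that pass the minimum. Over 8 scalings the member median lay −0.794 to −0.786 from the median of all tested genes on the log2 scale, while the median of all genes itself ranged from −0.01 with TMM to 0.28 with unscaled totals and 0.997 with RPKM totals. The plot of medians by scaling shows these shifts.

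**Figure D1:**
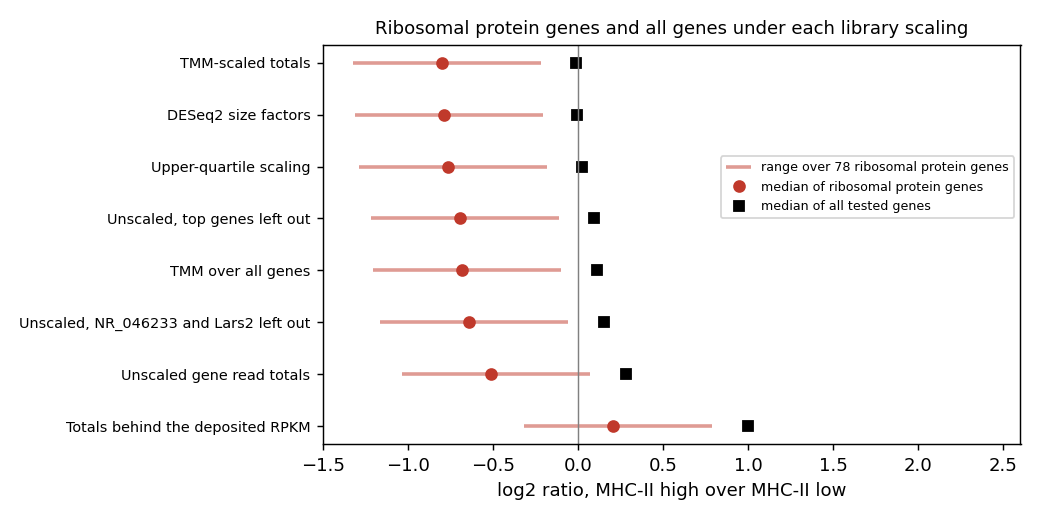
Log2 ratio of MHC-II high over MHC-II low under 8 library scalings, with circles for the median and lines for the range of 78 ribosomal protein genes and squares for the median of all tested genes. The distance between circle and square is near 0.79 throughout by construction, while the circle passes 0 with the RPKM totals, where it is at 0.20.

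The members were also close to each other. Their log2 ratios ran from −1.32 to −0.22 under TMM, with an SD of 0.263, and 73 of 78 (93.6%) lay within 0.5 of their own median. Of all tested genes 42.6% lay within 0.5 of theirs. The 2 subunits had like medians, −0.80 over 47 large-subunit and stalk genes and −0.77 over 31 small-subunit genes. Lower beyond 2-fold were 8 of 47 and 8 of 31, a larger share of the small subunit, against a background of 10.9%. With the RPKM totals every log2 ratio is higher by 1.003, and both medians are positive.

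Differences among members do not depend on library scaling, and they spanned 2.15-fold. At the low end, Rpl36 had 3978 reads or 26.0 CPM in the MHC-II high library and 3308 reads or 65.2 CPM in the MHC-II low one. It was 2.50-fold lower in MHC-II high cells (2.39 to 2.62). Rpl38, which in mouse is needed for normal translation of certain Hox mRNAs, was at 17.9 CPM in MHC-II high and 44.2 CPM in MHC-II low cells, 2.47-fold lower in MHC-II high cells (2.34 to 2.61). The intervals of these 2 genes overlap. Also at this end were Rpl37a at 53.6 CPM in MHC-II high and 124 CPM in MHC-II low cells and Rps27 at 35.3 CPM in MHC-II high and 80.0 CPM in MHC-II low cells. These are proteins of the large subunit except Rps27, which is in the small one. The Rps27 values are from its transcript with the most reads, a non-coding RefSeq entry with a log2 ratio of −1.18. The coding Rps27 transcript had 5024 reads in MHC-II high and 3864 in MHC-II low cells, with a log2 ratio of −1.21.

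Other small-subunit genes at the low end were Rps14 at 156 CPM in MHC-II high and 351 CPM in MHC-II low cells, Rps15 at 271 CPM in MHC-II high and 605 CPM in MHC-II low cells and Rps28 at 39.7 CPM in MHC-II high and 86.6 CPM in MHC-II low cells. Rps15, whose product is needed in human cells for export of the small subunit precursor from the nucleus, was 2.24-fold lower in MHC-II high cells (2.20 to 2.27). Rps19, the gene most often mutated in human Diamond-Blackfan anaemia, was at 62.8 CPM in MHC-II high and 134 CPM in MHC-II low cells. Rps19, Rpl21, Rpl22, Rpl32 and Rpl32l were picked after their values were seen. Under TMM the 8 lowest genes and Rps19 were all lower beyond 2-fold. With the RPKM totals the log2 ratios of these genes ran from −0.32 for Rpl36 to −0.09 for Rps19.

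At the other end, Rps15a had 17115 reads or 112 CPM in the MHC-II high library and 6612 reads or 130 CPM in the MHC-II low one, 1.16-fold lower in MHC-II high cells (1.13 to 1.20). Its listed transcript is long, at 5134 bases. The pseudogenes Rps15a-ps4 and Rps15a-ps6 were listed with log2 ratios of −0.61 and −0.56, against −0.22 for Rps15a. The part of transcript length and read assignment in the rank of Rps15a was not tested. Rps27l was at 34.0 CPM in MHC-II high and 40.7 CPM in MHC-II low cells and Rpl4 at 833 CPM in MHC-II high and 1022 CPM in MHC-II low cells. Rps27l, a variant of Rps27 known as a p53 target, overlapped Rps15a and Rpl4 in its interval. Its pair Rps27 was among the lowest, and the log2 ratio of Rps27l was above that of Rps27 by 0.92 under any scaling. With unscaled totals the log2 ratios of Rps15a and Rps27l turned to 0.07 and 0.03. With RPKM totals they were 0.78 and 0.74.

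Next came Rps24 at 143 CPM in MHC-II high and 181 CPM in MHC-II low cells, Rpl5 at 141 CPM in MHC-II high and 183 CPM in MHC-II low cells, Rpl36a at 30.9 CPM in MHC-II high and 40.6 CPM in MHC-II low cells, Rps6 at 198 CPM in MHC-II high and 264 CPM in MHC-II low cells and Rpl27 at 47.2 CPM in MHC-II high and 63.2 CPM in MHC-II low cells. Rps6 is the small-subunit protein that S6 kinases phosphorylate. Rpl5 binds 5S ribosomal RNA together with Rpl11, and both restrain Mdm2 when assembly fails. Rpl11 lay nearer the member median, at 62.6 CPM in MHC-II high and 105 CPM in MHC-II low cells.

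**Figure D2:**
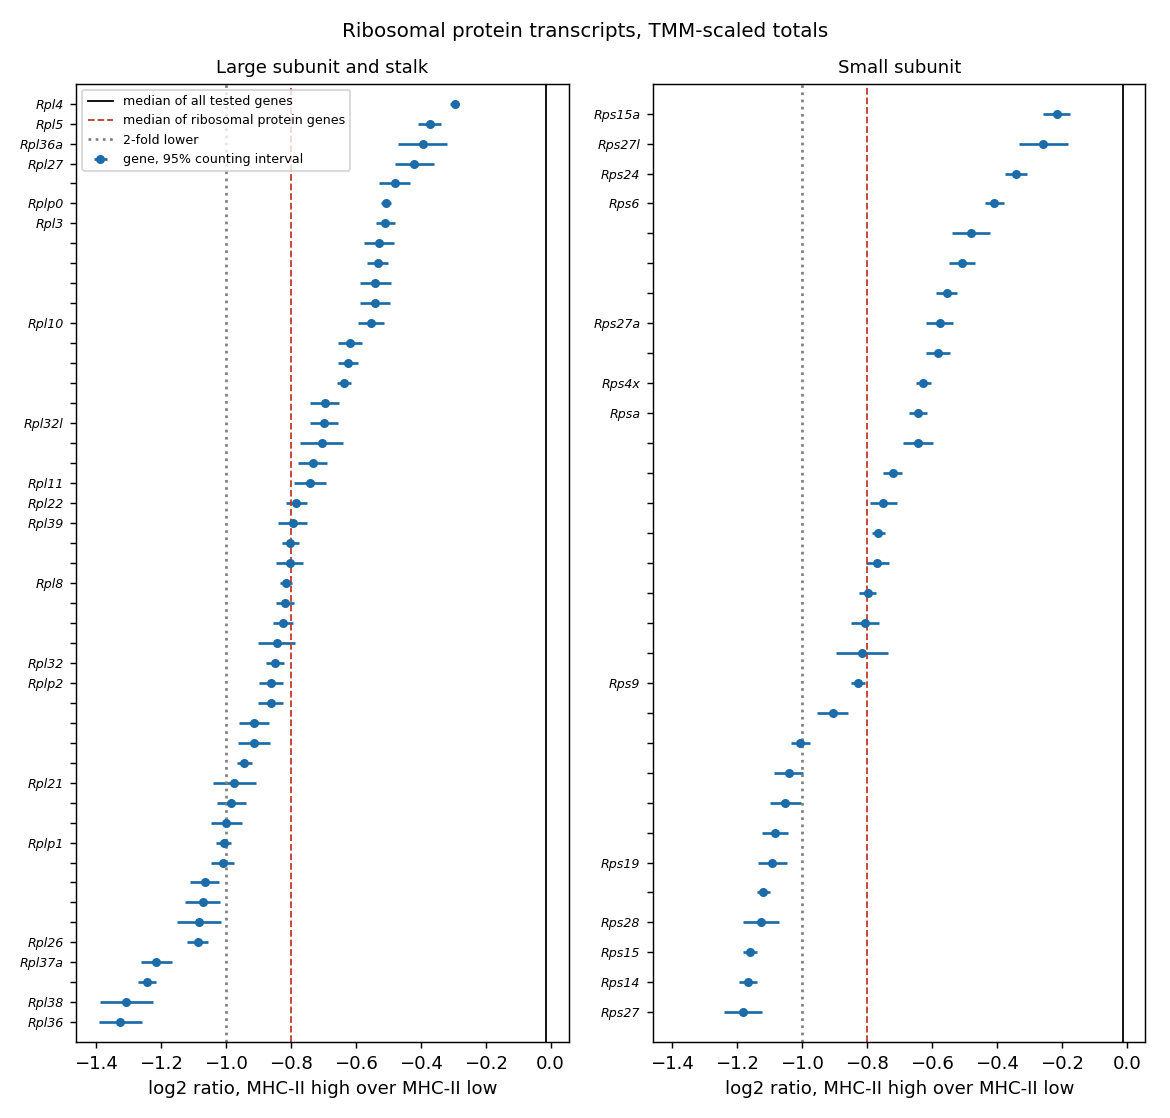
Log2 ratio of MHC-II high over MHC-II low for 78 ribosomal protein genes with TMM-scaled totals, by subunit, with bars for the 95% counting interval and names for the genes described in the text. All points lie left of the median of all tested genes at −0.01, from Rpl36 at −1.32 to Rps15a at −0.22, and with RPKM totals 58 of them would lie above 0.

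The stalk genes did not share a ratio as listed. Rplp0, the stalk base, was at 635 CPM in the MHC-II high library and 902 CPM in the MHC-II low one. The proteins that bind it in pairs were at 242 CPM in MHC-II high and 486 CPM in MHC-II low cells for Rplp1 and 103 CPM in MHC-II high and 187 CPM in MHC-II low cells for Rplp2. In MHC-II high cells Rplp0 was 1.42-fold (1.40 to 1.44), Rplp1 2.01-fold (1.98 to 2.04) and Rplp2 1.81-fold (1.77 to 1.86) lower, and these intervals do not overlap. The pseudogene Rplp2-ps1 was listed with 46268 reads in MHC-II high and 23291 in MHC-II low cells, at a log2 ratio of −0.60. Rplp2 itself had fewer, 15783 in MHC-II high and 9514 in MHC-II low cells. The part of read assignment between these copies in the Rplp2 ratio was not tested. With RPKM totals Rplp1 was near equality, at a deposited RPKM of 369.8 in MHC-II high and 370.6 in MHC-II low cells, while Rplp0 had an RPKM of 334 in MHC-II high and 236 in MHC-II low cells.

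Shares of the members' own reads do not depend on scaling. Rpl4 took 7.84% of member reads in the MHC-II high library (7.79 to 7.88%) and 5.70% in the MHC-II low one (5.65 to 5.75%). Rps15 took 2.55% in MHC-II high cells (2.52 to 2.57%) and 3.38% in MHC-II low cells (3.34 to 3.41%). Rpl36 took 0.245% in MHC-II high cells (0.237 to 0.253%) and 0.364% in MHC-II low cells (0.351 to 0.376%).

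Levels per length, in CPM per kilobase of the listed transcript, kept nearly the same order in both libraries. Across the 78 tested members Spearman's rho between the libraries was 0.96, given as a description, since both libraries share transcript lengths and counting. The highest levels in the MHC-II high library were 586 for Rpl4, 518 for Rps15, 517 for Rplp1, 508 for Rpl8 and 467 for Rplp0. In the MHC-II low library 1159 for Rps15, 1039 for Rplp1, 893 for Rpl8 and 786 for Rps9 were among the highest. Rpl4 had rank 1 among the members in MHC-II high and rank 8 in MHC-II low cells.

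The lowest tested levels per length were 16.3 CPM per kilobase for Rpl21 in the MHC-II high library and 25.4 for Rps15a in the MHC-II low one. The highest and lowest members therefore differed 35.8-fold in MHC-II high and 45.7-fold in MHC-II low cells, for proteins that mostly occur once per ribosome. Rps15a is listed with a transcript of 5134 bases and Rpl21 with one of 1856, against a member median of 682 bases, and a long listed transcript lowers the value per length. RefSeq names 15 pseudogenes for Rpl21 and 8 for Rps15a. The 24 tested members with 5 or more named pseudogenes had a median of 91.2 CPM per kilobase in the MHC-II high and 157 in the MHC-II low library. The 16 with none had 168 in MHC-II high and 304 in MHC-II low cells. The median log2 ratio was −0.83 over members with 5 or more and −0.80 over those with none. How reads of near-identical copies were assigned is not given in the sources used here, and levels per length of genes with many copies are uncertain.

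**Figure D3:**
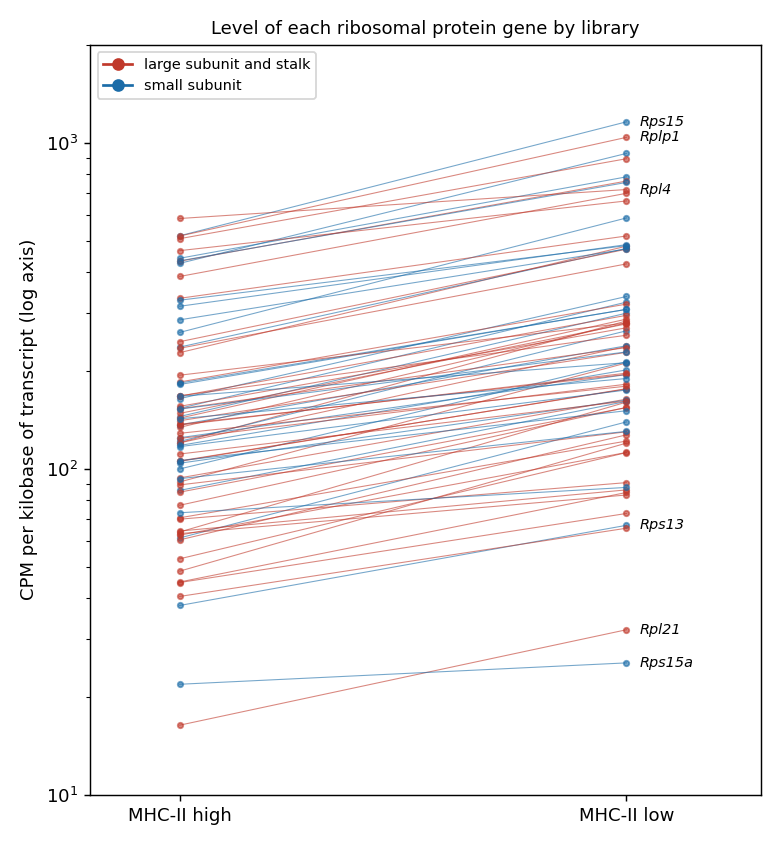
Level of each of 78 ribosomal protein genes in CPM per kilobase (log axis) in the MHC-II high and the MHC-II low library with TMM-scaled totals, a line joining the 2 values of a gene. Every line goes up to the MHC-II low side, most of them in parallel, and the lines of Rpl4 and Rps15a are flatter than most; with RPKM totals 58 of the lines would slope the other way.

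Copies could be seen in the counts. Rpl26 had 18840 reads in MHC-II high and 13279 in MHC-II low cells, and so did Gm15772, and these genes cannot be told apart. Rpl32l, which RefSeq lists as protein coding and GENCODE vM21 as a processed pseudogene with 1 exon, had 12699 reads in the MHC-II high and 6839 in the MHC-II low library, and Rpl32 had 29951 in MHC-II high and 17904 in MHC-II low cells. Rps4l, left out as a pseudogene, had 9585 reads in MHC-II high and 6321 in MHC-II low cells. Rps4x had 42178 reads in MHC-II high and 21655 in MHC-II low cells. It was at 276 CPM in MHC-II high and 427 CPM in MHC-II low cells, and the other X-linked members were at 98.4 CPM in MHC-II high and 144 CPM in MHC-II low cells for Rpl10, 30.9 CPM in MHC-II high and 40.6 CPM in MHC-II low cells for Rpl36a and 72.7 CPM in MHC-II high and 126 CPM in MHC-II low cells for Rpl39. The 4 X-linked genes had a median log2 ratio of −0.59, and it turned positive with the RPKM totals.

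The 3 members under the minimum are forms known from other tissues. Rpl3l, the striated muscle form of Rpl3, had 73 reads or 0.478 CPM in the MHC-II high library and 26 reads or 0.512 CPM in the MHC-II low one. Its interval spans equality, with MHC-II low over high ratios from 0.658 to 1.70. A second listed Rpl3l transcript had 62 reads in MHC-II high and 9 in MHC-II low cells and a log2 ratio of 1.19, so the direction for this gene depends on the transcript. Rpl39l, a testis-enriched form, had 22 reads in MHC-II high and 13 in MHC-II low cells, with an interval of 0.823 to 3.69 for the MHC-II low over high ratio. Rpl10l, an autosomal testis copy of Rpl10, had 2 reads in MHC-II high and 25 in MHC-II low cells, an MHC-II low over high ratio of 37.6 with limits of 9.38 and 328. Ubiquitous counterparts were far above them, Rpl3 at 186 CPM in MHC-II high and 265 CPM in MHC-II low cells and Rpl10 and Rpl39 as given.

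Other named members lay between the ends. Rpsa, a small-subunit protein also known as a laminin receptor, was at 193 CPM in MHC-II high and 302 CPM in MHC-II low cells. Rps27a, which is made as a fusion with ubiquitin, was at 95.9 CPM in MHC-II high and 143 CPM in MHC-II low cells. Of 19 genes linked to Diamond-Blackfan anaemia in human, 5 were lower beyond 2-fold and none higher under TMM, beside 16 of 78 over all members and against backgrounds of 14.5% higher and 10.9% lower. Their median log2 ratio was −0.75. Under RPKM totals that median is positive.

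Of 8 ribosomal protein genes outside the symbol rule, 2 were lower beyond 2-fold and none higher under TMM, against backgrounds of 14.5% higher and 10.9% lower, with a median log2 ratio of −0.71 that is positive with RPKM totals. Rack1, a scaffold on the small subunit, was at 497 CPM in MHC-II high and 941 CPM in MHC-II low cells and Rps3a1 at 227 CPM in MHC-II high and 294 CPM in MHC-II low cells. Rps27rt was listed at 32.9 CPM in MHC-II high and 76.1 CPM in MHC-II low cells, but its 5024 reads in MHC-II high and 3864 in MHC-II low cells equal those of a second Rps27 transcript, so it is no separate measurement. Without it 1 of 7 was lower, and the median was −0.50. Rpl22l1, picked after its values were seen, was the one gene of the 8 with a positive ratio under TMM, at 52.1 CPM in MHC-II high and 44.1 CPM in MHC-II low cells with a log2 ratio of 0.24. Its paralog Rpl22, which mouse T cell development requires, was at 144 CPM in MHC-II high and 248 CPM in MHC-II low cells.

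Mitochondrial ribosomal proteins are encoded in the nucleus too and form a separate ribosome. Of 78 such genes, 4 were lower beyond 2-fold (background 10.9%) and none higher (background 14.5%), and 65 had a negative log2 ratio under TMM. Their median was −0.37, between the cytosolic members at −0.80 and all genes at −0.01, and is positive with the RPKM totals. Mrpl38 was at 90.5 CPM in MHC-II high and 72.4 CPM in MHC-II low cells and Mrps7 at 81.4 CPM in MHC-II high and 74.2 CPM in MHC-II low cells. Mrps24 was 2.49-fold (2.33 to 2.66) and Mrpl52 2.35-fold (2.20 to 2.51) lower in MHC-II high cells.

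Elongation factors, which move the ribosome along the mRNA, moved in both directions under TMM. Of 10, 1 was higher and 1 lower beyond 2-fold, near the backgrounds of 14.5% higher and 10.9% lower, with a median log2 ratio of −0.38. Eef1a1, the carrier of aminoacyl-tRNA, was at 2872 CPM in MHC-II high and 3831 CPM in MHC-II low cells and the translocase gene Eef2 at 1930 CPM in MHC-II high and 2844 CPM in MHC-II low cells. Eef1g was 2.25-fold lower in MHC-II high cells (2.20 to 2.29). Eif5a2 was 3.13-fold higher in MHC-II high cells (2.85 to 3.45), at 29.7 CPM in MHC-II high and 9.47 CPM in MHC-II low cells.

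Initiation factors had no shared direction under TMM. Of 35, 2 were higher and 1 lower beyond 2-fold, below the backgrounds of 14.5% higher and 10.9% lower, 16 had a negative ratio, and the median was 0.05. Pabpc1, the poly-A binding protein, was at 529 CPM in MHC-II high and 259 CPM in MHC-II low cells, 2.04-fold higher in MHC-II high cells (2.01 to 2.08). Eif2s2 was at 131 CPM in MHC-II high and 59.5 CPM in MHC-II low cells, Eif4g2 at 1405 CPM in MHC-II high and 1013 CPM in MHC-II low cells, and Eif3k was 2.49-fold lower in MHC-II high cells (2.40 to 2.57).

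Under TMM none of 34 tested ribosome assembly genes was beyond 2-fold in either direction, against backgrounds of 14.5% higher and 10.9% lower, while 10 of 34 were higher and none lower with RPKM totals, where the backgrounds were 45.2% higher and 2.94% lower. Their median was −0.10. The nucleolar gene Ncl was at 621 CPM in MHC-II high and 361 CPM in MHC-II low cells, and Npm1 at 228 CPM in MHC-II high and 149 CPM in MHC-II low cells. Gnl3 (nucleostemin) was at 47.4 CPM in MHC-II high and 23.3 CPM in MHC-II low cells and Nop10 at 23.7 CPM in MHC-II high and 44.4 CPM in MHC-II low cells. Of 18 tested genes of RNA polymerase I and its factors, Mycn was 4.65-fold higher in MHC-II high cells (3.66 to 5.99), with 1008 reads there and 72 in MHC-II low cells, and it was the one gene of the list called higher (background 14.5%), with none lower (background 10.9%). Myc was at 144 CPM in MHC-II high and 97.0 CPM in MHC-II low cells, the rDNA factor gene Ubtf at 87.9 CPM in MHC-II high and 161 CPM in MHC-II low cells, and Polr2f at 18.1 CPM in MHC-II high and 34.8 CPM in MHC-II low cells. The median of that list was −0.38.

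Of 15 genes of the TOR pathway and of TOP mRNA control, 1 was higher and 1 lower beyond 2-fold under TMM, below the backgrounds of 14.5% higher and 10.9% lower, with a median of 0.11. Larp1, which binds the TOP tract of ribosomal protein mRNAs, was at 216 CPM in MHC-II high and 111 CPM in MHC-II low cells, a ratio of 1.95 (1.89 to 2.00). Larp4 was 2.59-fold higher in MHC-II high cells (2.49 to 2.70), and Eef2k, the kinase that inhibits Eef2, was 3.72-fold lower in MHC-II high cells (3.52 to 3.93). Of 20 cytosolic aminoacyl-tRNA synthetase genes none was beyond 2-fold under TMM, against backgrounds of 14.5% higher and 10.9% lower, with a median of −0.11. Vars was at 522 CPM in MHC-II high and 259 CPM in MHC-II low cells, Eprs at 128 CPM in MHC-II high and 90.3 CPM in MHC-II low cells and Kars at 71.1 CPM in MHC-II high and 121 CPM in MHC-II low cells. Of 12 nascent chain factors none was beyond 2-fold under TMM, against backgrounds of 14.5% higher and 10.9% lower, with a median of −0.09. Hspa8 was at 1717 CPM in MHC-II high and 2789 CPM in MHC-II low cells. Naca was at 158 CPM in MHC-II high and 207 CPM in MHC-II low cells and Srp14 at 59.0 CPM in MHC-II high and 87.8 CPM in MHC-II low cells. With RPKM totals each of these log2 ratios and medians is higher by 1.003. There 4 of 10 elongation factors, 18 of 35 initiation factors, 6 of 18 RNA polymerase I genes, 8 of 15 TOR genes, 7 of 20 synthetases, 6 of 12 nascent chain factors and 10 of 78 mitochondrial ribosomal proteins were higher beyond 2-fold, against a background of 45.2%, and none of them was lower.

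**Figure D4:**
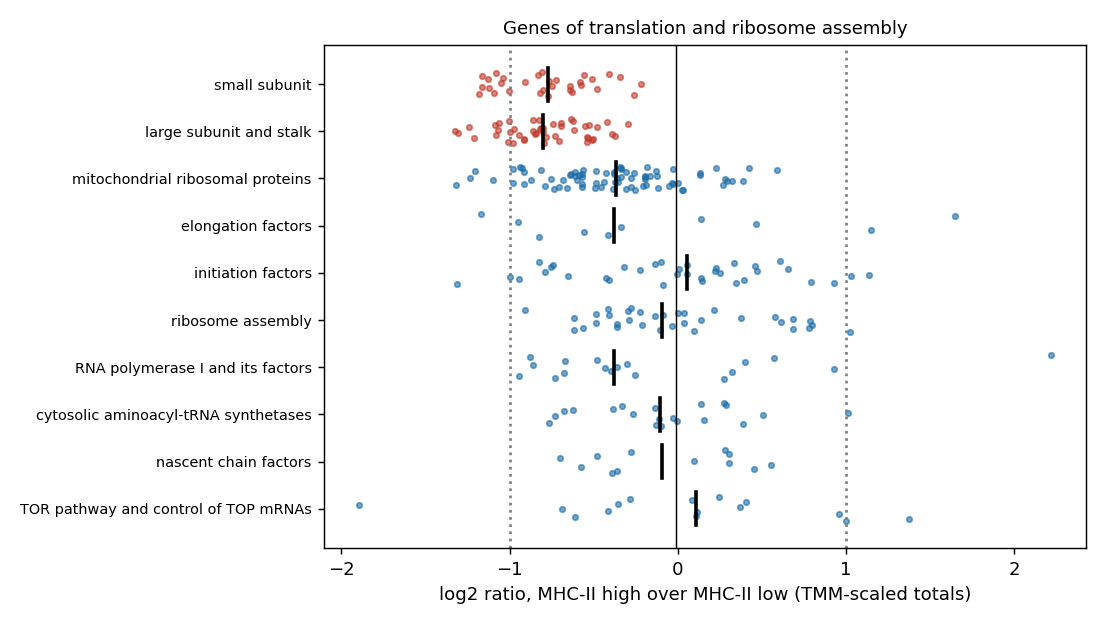
Log2 ratio of MHC-II high over MHC-II low with TMM-scaled totals for genes of translation and ribosome assembly, each point a gene past the minimum and each bar the list's median, with dotted lines at 2-fold. The cytosolic subunits have medians of −0.77 and −0.80 and no point above 0, while initiation factors spread around 0.05; with RPKM totals all points shift up by 1.003.

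Transcript length and base composition moved with the ratio. Members were short, with 61 of 78 under 1000 bases and a median of 682 bases, against 2725 bases over all tested genes. Among members the log2 ratio was higher with longer listed transcripts (Spearman's rho 0.37, n = 78) and lower with a higher GC content of the matched GENCODE vM21 transcript (rho −0.40, n = 77, where 13 matched transcripts differed in length from the listed one by more than 1.5-fold). Over all tested genes the same rho was 0.05 with length and −0.22 with GC content. Among tested genes with a mean of at least 50 CPM, members included, the median log2 ratio rose with length under TMM. It was −0.82 for 28 genes under 500 bases and −0.58 for 232 genes of 500 to 1000 bases. For 746 genes of 1000 to 2000 bases it was −0.27, and for 1747 of 2000 to 4000 bases −0.03. The 1820 longer genes had 0.16. These are descriptions across genes, which share the 2 libraries. Rps27l, Rps15a and Rpl5 are at 44.9%, 45.4% and 42.7% GC, and Rpl36 and Rps19 at 60.8% and 59.6%. These are examples, and other members departed from that order. Rpl37a and Rpl9, with log2 ratios of −1.21 and −1.07 under TMM, are at 47.1% and 48.9% GC. Rpl15, at 43.2% GC, had a log2 ratio of −0.70.

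The 474 other tested genes under 1000 bases with a mean of at least 20 CPM had a median log2 ratio of −0.45, between that of all genes and that of the members. Within GC classes, 24 members at 45 to 50% GC had a median of −0.67 against −0.27 for 96 such short genes. At 50 to 55% GC, 35 members had −0.82 against −0.58 for 144 short genes. At 55 to 60% GC, 12 members had −0.88 against −0.63 for 135 short genes. Below 45% GC, 4 members had −0.53 against 0.06 for 54 short genes. From 60% GC, 2 members had −1.07 against −0.89 for 24 short genes. The members in these classes were not limited to under 1000 bases. Signs refer to TMM-scaled totals, and with RPKM totals each value is higher by 1.003. Below the median of short genes in their GC class lay 64 of 77 members. The part of length and base composition in the result was not tested.

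**Figure D5:**
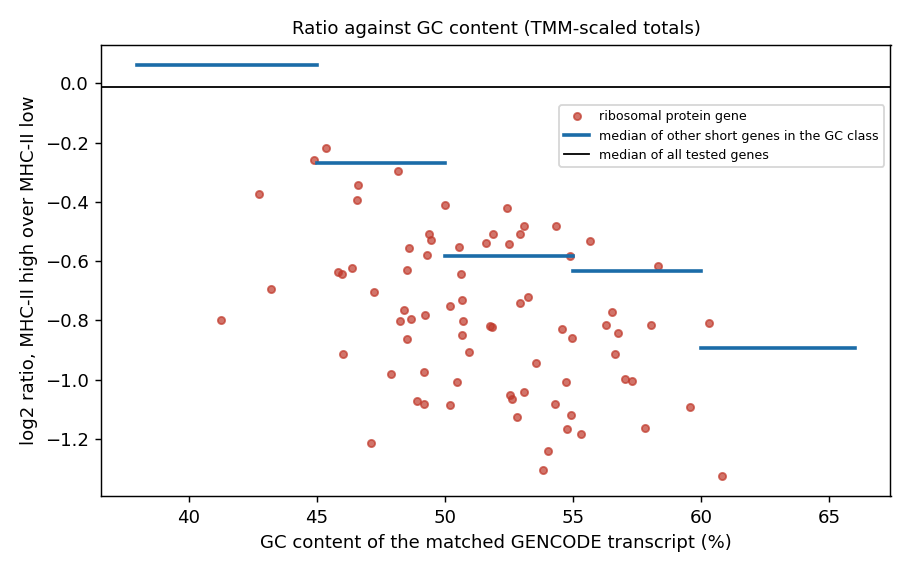
Log2 ratio of MHC-II high over MHC-II low with TMM-scaled totals against GC content of the matched transcript (%), with circles for 77 ribosomal protein genes and bars for the median of other genes under 1000 bases with at least 20 CPM in each GC class. Points and bars both go down with GC content, and 64 of 77 circles lie below the bar of their class; RPKM totals would shift all of them up by 1.003.

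Other contents of the libraries differed as well. The counts of markers beyond 2-fold are under TMM and stand against backgrounds of 14.5% higher and 10.9% lower. Endothelial markers, 8 of 8 lower beyond 2-fold in the MHC-II high library, summed to 65.3 CPM there and 480 CPM in the MHC-II low one. Fibroblast markers (5 of 7 lower) summed to 190 CPM in MHC-II high and 1088 CPM in MHC-II low cells, erythroid markers (4 of 5 tested lower) to 103 CPM in MHC-II high and 3970 CPM in MHC-II low cells and thymocyte markers (1 of 8 tested higher, 2 lower) to 47.9 CPM in MHC-II high and 73.1 CPM in MHC-II low cells. The reads of Hba-a1 and Hba-a2 are identical and entered under both symbols. Dendritic cell and macrophage markers (5 of 7 higher) summed to 101 CPM in MHC-II high and 24.6 CPM in MHC-II low cells and B cell markers (2 of 4 tested higher) to 30.1 CPM in MHC-II high and 24.1 CPM in MHC-II low cells. No marker of these types found in the tables was at 0 reads in either library. Thymic epithelial markers (1 of 6 higher) summed to 4479 CPM in MHC-II high and 4961 CPM in MHC-II low cells. Mature mTEC markers, 6 of 6 higher, summed to 1555 CPM in MHC-II high and 306 CPM in MHC-II low cells, and immature ones, 5 of 6 lower, to 1903 CPM in MHC-II high and 16289 CPM in MHC-II low cells, with Aire, the transcription factor of mature mTEC, at 571 CPM in MHC-II high and 21.0 CPM in MHC-II low cells. NR_046233, an accession without a symbol, took 0.679% of gene reads in the MHC-II high library (0.677 to 0.680%) and 7.08% in the MHC-II low one (7.07 to 7.08%), and Lars2 took 0.0941% (0.0936 to 0.0946%) in MHC-II high and 2.12% (2.11 to 2.12%) in MHC-II low cells. With totals that leave both out, the member median was −0.64 and 4 of 78 were lower beyond 2-fold. The part of other cell types in the ribosomal protein difference was not tested.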

How the data were processed

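The submitters' processing notes name mm9, CASAVA, Bowtie 1.0.0 and bedtools. Alignment and counting settings are not given in the sources used here. The authors' tables, per the file headers, hold counts, lengths and RPKM values of RefSeq transcripts. Each deposited RPKM equals count over length over 1 total per library, 213854095 for MHC-II high and 142330178 for MHC-II low.

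Lines that were no transcripts were left out (18 and 36). Genomic copies were summed, and 29800 of 29920 accessions, in both tables at equal length, were kept. Symbols came from RefSeq (GRCm38.p6; 29229 accessions) and GENCODE vM21 (177), and 394 accessions had none. Each gene took its transcript with the most reads. TMM totals were computed with edgeR 4.0.16 in R 4.3.3 on genes with a mean of at least 1 CPM, giving 152834158 for MHC-II high and 50769789 for MHC-II low. DESeq2 1.42.0 gave alternative size factors. Single libraries allow no replicate check and no p-value. A gene was called when its whole interval (scipy 1.17.1) lay beyond 2-fold. The calling was run on simulated counts that held counting error only, so it cannot show how calls fare under variation between samples. Named members were the 8 highest and 8 lowest ratios, the 5 highest levels per length in each library, those under the minimum, and a fixed set of paralogs and stalk genes, with 2 genes by reads and 2 by ratio from each other list. Some genes that this rule picks are not reported here. Members and lists were chosen with earlier results of these data known. The kit keeps no strand, per the labels' protocols, so overlapping antisense genes cannot be told apart.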

Additional observations from a re-analysis of the deposited data

How the results depend on the processing

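With RPKM totals the member median reversed to 0.20 and the log2 ratio of summed reads to 0.25, with 0 members lower. With unscaled totals these values were −0.51, −0.47 and 0. Unscaled totals without NR_046233 and Lars2 gave −0.64, −0.60 and 4, and without 16 top genes (the 10 with the most reads in either library) −0.70, −0.65 and 7. TMM over all genes, chosen after seeing the data, gave −0.68, −0.64 and 7. Scaling shifts every gene by the same amount by construction. Upper-quartile scaling gave −0.76 and −0.72, and DESeq2 size factors −0.75 for summed reads. The 1.5-fold threshold gave 56 lower. Without Rpl26 and Rpl10l, whose reads equal those of other genes, the summed value was −0.75. After a linear fit on GC content and length, added after seeing the data, the median was −0.94 (all tested genes −0.10). This fit is a single line over 16964 genes. Over all tested genes rho with length was 0.05, but among those with at least 50 CPM the median ratio rose with length. The fit therefore cannot decide the part of length and GC content. Other short genes and members had TMM medians of −0.27 and −0.67 at 45 to 50% GC and of −0.58 and −0.82 at 50 to 55% GC. At 55 to 60% GC they had −0.63 and −0.88. Members of any length entered these classes, and the part of length and GC content was not tested. Other minimums, transcript choices and member sets moved the count of lower members by less than 1.5 times and kept the sign of both values. No member was higher beyond 2-fold under any of these alternatives. No member lay on several genomic copies in the tables, so that alternative has no value. No paired analysis was possible because each group has 1 library. Depth is not limiting for tested members, the lowest having 1981 reads, but Rpl3l, Rpl10l and Rpl39l have 2 to 73 reads in a library.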
